A study of Mus musculus with 7 samples.

Results

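The comparison is between a pair of cultures of bone marrow derived macrophages from mouse. One culture was kept with Pam3CSK4 for 24 h and then given MDP for 3 h, and the other was kept for 24 h without ligand (naive) and then given MDP for 3 h as its first ligand. It rests on 2 of the 7 Affymetrix expression arrays, 1 per culture, and on 18193 genes, each read from its brightest probe set (by the mean of all 7 arrays) that names no other gene. Per the labels, MDP was used at 10 mg/ml and Pam3CSK4 at 1 mg/ml (unit as printed there), and 5 µg of total RNA went into each array. The 5 other cultures were Pam3CSK4 then Pam3CSK4, MDP then MDP, MDP then Pam3CSK4, naive given Pam3CSK4, and naive left unstimulated. Every array carries the replicate number 2, and strain, sex and age of the mice are not given in the sources used here. No culture had Pam3CSK4 for 24 h without a second ligand, so the state left by the pretreatment and the answer to MDP cannot be told apart here. The comparison addresses how an earlier contact with a TLR2 ligand bears on a later contact with MDP.

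MDP, muramyl dipeptide, is a fragment of bacterial peptidoglycan recognised inside the cell by a receptor of the NOD-like family, which signals to NF-kB and the MAP kinases. Pam3CSK4 is a synthetic lipopeptide that imitates bacterial lipoproteins and is recognised by TLR2 together with TLR1 on the outer membrane, which signal through MyD88. Macrophages that have met a Toll-like receptor ligand can answer the next stimulus weakly for some genes (tolerance) and more strongly for others (priming), and both pathways end on many of the same NF-kB target genes.

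All values below are log2 expression values, and a difference is the value in pretreated macrophages given MDP minus the value in naive macrophages given MDP. With 1 array per group there is no replicate check, no test was possible, and 2-fold is a threshold of size only. A value below the median of its own array (5.53 for the pretreated culture, 5.55 for the naive culture) was counted from that median and the fold is then written as "at least". The arrays were alike at the whole-array level: the 7 medians lay between 5.48 and 5.55, the 75th percentile was 8.05 on the pretreated and 8.06 on the naive array, and the gap between 3′ and 5′ Gapdh control probe sets was 0.09 on the pretreated and 0.04 on the naive array. The Gapdh control probe sets had a median of 14.4 on the pretreated and 14.1 on the naive array, a difference of 0.31. All 18 measured macrophage identity genes lay above the median on both arrays, among them the growth factor receptor Csf1r (14.04 pretreated, 14.33 naive) and Adgre1, which encodes F4/80 (14.12 pretreated, 13.24 naive).

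Pretreated macrophages given MDP had 390 genes at least 2-fold above naive macrophages given MDP, which is 2.14% of the 18193, and 311 genes at least 2-fold below, which is 1.71%. Large differences lay mostly on the higher side: past 4-fold there were 102 higher genes against 44 lower, and past 8-fold 47 against 3. The gene furthest on the higher side was the scavenger receptor Marco and on the lower side the chromatin protein Hmga2. Of the 42 lists, interferon-stimulated antiviral genes had the highest median and genes of mitosis the lowest. The split depends on the scale. With both arrays centred on the median level of the housekeeping genes, which moves all genes by 0.34, it was 750 higher and 133 lower. These medians fell on different genes, Rps18 on the pretreated array (13.42) and Rps3 on the naive array (13.76). The median housekeeping difference was smaller, at -0.13. Centred on that difference, an alternative chosen after seeing the data, the split was 485 higher and 224 lower. The median difference over all genes was -0.0046. The 3 genes nearest the threshold on the higher side were Kif5c, Aldoc and Btg2, all at 1.00, and the nearest genes short of it were Cept1, Ms4a4b and Selenow, also at 1.00 after rounding. In bulk cultures, fewer cells that express a gene and less RNA per cell cannot be told apart.

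**Figure D1:**
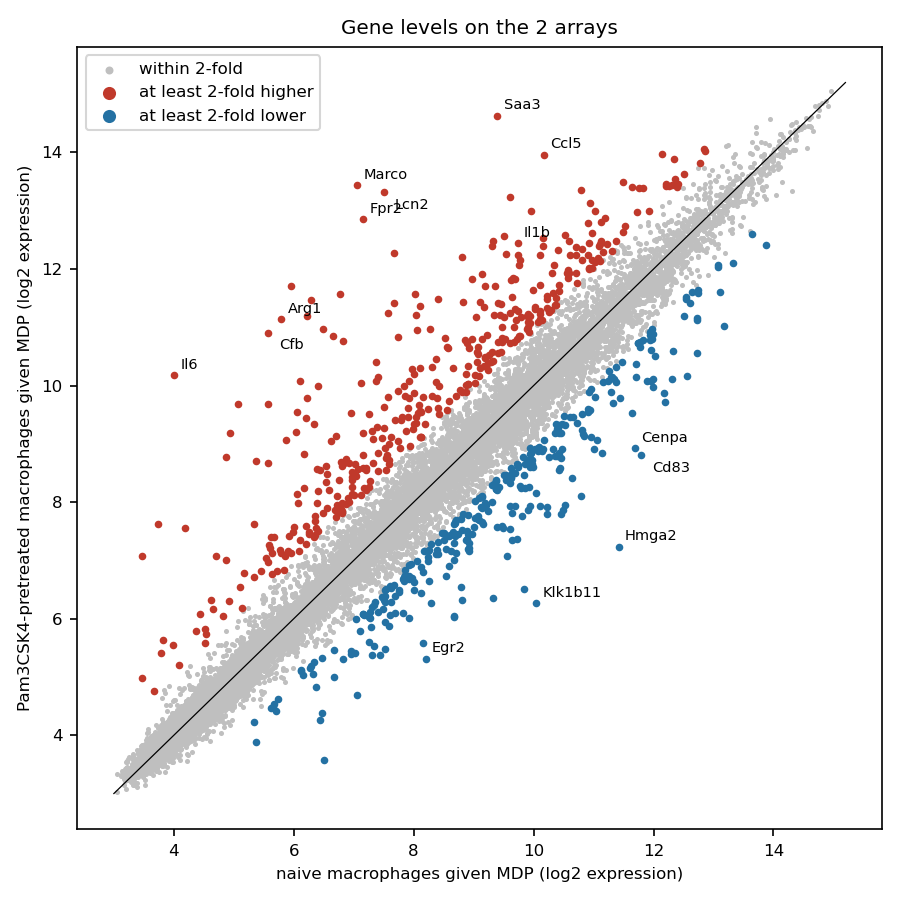
Log2 expression of 18193 genes in Pam3CSK4-pretreated macrophages given MDP (vertical axis) and in naive macrophages given MDP (horizontal axis), 1 array each; the line marks equal values and each point is 1 gene. The 390 genes at least 2-fold higher (red) reach farther from the line than the 311 at least 2-fold lower (blue), with Marco at 13.43 pretreated against 7.06 naive at one end and Hmga2 at 7.24 pretreated against 11.42 naive at the other.

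Cytokine genes were mostly higher in the pretreated culture. Of 26 measured, 8 were at least 2-fold higher and 0 were lower by as much, with a median difference of 0.57 against -0.0046 over all genes. Il6, which encodes a secreted cytokine that drives the acute phase response, was at 10.18 in pretreated cells and at 4.01, below the array median, in naive cells. It was therefore at least 24.8-fold higher, and MDP then MDP (4.31) and unstimulated cells (3.41) were below their array medians too. Il1a and Il1b encode the interleukin-1 cytokines of fever and inflammation. Il1b stood at 12.45 in pretreated and 9.73 in naive cells, a 6.57-fold difference, and Il1a at 10.41 in pretreated and 7.38 in naive cells, an 8.17-fold difference. In unstimulated cells Il1b was at 6.67 and Il1a at 4.79.

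Other cytokines showed smaller differences. Tnf, the classical early inflammatory cytokine, was at 11.54 in pretreated and 10.23 in naive cells (2.48-fold higher). Il10, which restrains macrophage activation, was at 8.92 in pretreated and 7.51 in naive cells (2.65-fold higher), and naive cells given MDP were close to the unstimulated level of 7.40. Ifnb1, which encodes interferon beta, was at 7.27 in pretreated and 5.59 in naive cells (3.20-fold higher). Both interleukin-1 genes, Tnf and Il10 were thus higher after pretreatment, but none reached its level in naive cells given Pam3CSK4. That level was 14.17 for Il1b, 12.04 for Il1a, 12.89 for Tnf and 10.47 for Il10. The other cytokine genes at least 2-fold higher were above it. It was 9.84 for Il6, 5.70 for Ifnb1, 6.86 for Tnfsf10 (8.08 pretreated) and 6.51 for Inhba (7.40 pretreated). Il12b, a subunit of interleukin-12, was below the median on both arrays (4.02 pretreated, 4.15 naive), so no fold is given. The interleukin-1 receptor antagonist gene Il1rn was at 12.44 in pretreated and 11.74 in naive cells, a difference of 0.70 that is short of 2-fold.

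Chemokine genes followed a like pattern. Of 11 measured CXC chemokines 4 were at least 2-fold higher and 1 lower (median 0.60), and of 13 CC chemokines 5 were higher and 1 lower (median 0.62). The neutrophil attractants were prominent: Cxcl1 was at 9.81 in pretreated and 7.57 in naive cells (4.72-fold higher), Cxcl2 at 13.13 in pretreated and 10.95 in naive cells (4.56-fold) and Cxcl3 at 12.24 in pretreated and 10.11 in naive cells (4.38-fold). Cxcl5, another neutrophil attractant, was at 7.63 in pretreated and below the median in naive cells, at least 4.23-fold higher. The 3 probe sets of Cxcl1 gave differences from 0.74 to 3.21, so its size is less certain than its direction. Among CC chemokines Ccl5, which attracts T cells and monocytes, differed most, with 13.96 in pretreated and 10.17 in naive cells (13.9-fold higher). The monocyte attractant Ccl8 was 6.57-fold higher, and Ccl3 (3.97-fold), Ccl4 (3.40-fold) and Ccl12 (2.92-fold) were higher as well.

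Other chemokines were within 2-fold or lower. Ccl2, a main monocyte attractant, was already at 13.71 in naive cells given MDP and at 14.34 in pretreated cells, a difference of 0.62. Cxcl10, an interferon-inducible attractant of T cells, was at 13.27 in pretreated and 12.70 in naive cells, and both were far above its unstimulated level of 9.78. The eotaxin Ccl24 was lower, with 6.37 in pretreated and 7.47 in naive cells (2.14-fold), and Cxcl14 was 2.04-fold lower. Both were short of 2-fold with 32 added to the linear values.

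Promoter stretches of some higher cytokine and chemokine genes are shown because NF-kB is the common end of both ligand pathways. Only genes with a match to an NF-kB site core were eligible, so the stretches do not stand for all higher members. They come from RefSeq (build GRCm38.p6), run 5′ to 3′ along the gene's strand, and capitals mark GGNNTTTCC, the core of an NF-kB site, on either strand; neighbouring matches can overlap.
Il6 (chr5:30013041-30013109, + strand): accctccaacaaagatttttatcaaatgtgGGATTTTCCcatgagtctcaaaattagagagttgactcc
Cxcl1 (chr5:90891126-90891213, + strand): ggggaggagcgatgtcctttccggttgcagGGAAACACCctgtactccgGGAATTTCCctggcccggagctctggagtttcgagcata
Cxcl2 (chr5:90903773-90903860, + strand): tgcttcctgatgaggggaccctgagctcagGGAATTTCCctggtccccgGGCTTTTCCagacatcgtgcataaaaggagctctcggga
Cxcl3 (chr5:90785999-90786067, + strand): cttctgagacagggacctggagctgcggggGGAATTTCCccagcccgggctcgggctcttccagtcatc
Windows of 250 bases before to 50 after the gene start were searched for 14452 of the genes, which have 18109 windows. The core was in 5.97% of all windows, in 62.5% of the CXC chemokine windows (5 of 8) in 12.5% of the CC chemokine windows (1 of 8) and in 30.8% of the cytokine windows (8 of 26). It was in 9.73% of the windows of the higher genes and 7.79% of those of the lower genes. A match describes the letters of the window and is not a binding site shown to be in use.

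Acute phase and antimicrobial genes held some of the widest gaps between the arrays. Of 24 measured, 8 were at least 2-fold higher and 0 lower (median 0.69, and 0.38 with 32 added to the linear values). Lcn2, which encodes lipocalin 2, a protein that withholds iron carriers from bacteria, was at 13.32 in pretreated and 7.50 in naive cells, a 56.5-fold difference. The serum amyloid gene Saa3 was at 14.63 in pretreated and 9.40 in naive cells (37.7-fold higher), and Hp, which encodes the haemoglobin scavenger haptoglobin, at 11.58 in pretreated and 6.78 in naive cells (27.9-fold). Cp, the copper-carrying ferroxidase ceruloplasmin, was 15.4-fold higher with 5 probe sets above the median that gave differences from 3.06 to 3.95. Naive cells given MDP differed little from unstimulated cells for Lcn2 (7.83) and Hp (6.80), whereas Saa3 was at 6.78 in unstimulated cells. Slpi, a protease inhibitor secreted by macrophages, was 9.69-fold higher, and Saa1 at least 4.02-fold. Among complement genes, 4 of 15 were at least 2-fold higher, led by factor B, Cfb, with 10.91 in pretreated and 5.58 in naive cells (40.3-fold).

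The acute phase promoters of Lcn2, Saa3 and Cp are given because the C/EBP family is a known regulator of this class in liver. They were chosen among members with a match to its site core. Capitals mark TTGCNNAA, a C/EBP site core, on either strand.
Lcn2 (chr2:32387918-32387985, - strand): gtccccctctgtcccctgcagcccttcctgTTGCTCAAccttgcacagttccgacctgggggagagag
Saa3 (chr7:46715738-46715805, - strand): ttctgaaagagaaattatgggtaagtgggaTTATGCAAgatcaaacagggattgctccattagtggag
Cp (chr3:19957149-19957216, + strand): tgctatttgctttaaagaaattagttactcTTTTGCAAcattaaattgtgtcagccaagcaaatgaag
The core was in 50% of the acute phase windows (11 of 22), 15.0% of the windows of all higher genes and 9.39% of all windows. Cebpd, a member of that family, was at 11.23 in pretreated and 10.11 in naive cells (2.17-fold higher), but short of 2-fold with its probe sets averaged.

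The gene with the widest difference was Marco, a scavenger receptor that binds bacteria, with 13.43 in pretreated and 7.06 in naive cells (83.2-fold higher). Its 2 probe sets above the median gave 6.38 and 7.35. Marco was at 13.46 in Pam3CSK4 then Pam3CSK4, 7.40 in MDP then MDP, 9.21 in MDP then Pam3CSK4, 8.66 in naive cells given Pam3CSK4 and 6.21 in unstimulated cells, so only the cultures that had Pam3CSK4 for 24 h were above 10. The other scavenger receptors did not move with it: Msr1 was at 13.22 in pretreated and 12.55 in naive cells, while the oxidised lipoprotein receptor Olr1 was at 7.93 in pretreated and 9.70 in naive cells (3.41-fold lower). The hyaluronan and lipoprotein receptors Stab1 and Stab2 were 2.16-fold and 2.34-fold lower, and short of 2-fold on the scale centred on the housekeeping levels.

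Receptors for chemoattractants were split. Fpr2, a receptor for bacterial formyl peptides and serum amyloid, was at 12.86 in pretreated and 7.15 in naive cells (52.1-fold higher). Ltb4r1, the leukotriene B4 receptor, was 3.37-fold higher, and the chemerin-binding Ccrl2 2.23-fold. By contrast Cxcr4, the receptor for the bone marrow retention signal, was at 7.80 in pretreated and 10.45 in naive cells (6.27-fold lower), and Ccr2, the receptor for Ccl2, was 2.31-fold lower but not with its probe sets averaged. Of 15 measured receptors of this kind, 3 were at least 2-fold higher and 2 lower.

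**Figure D2:**
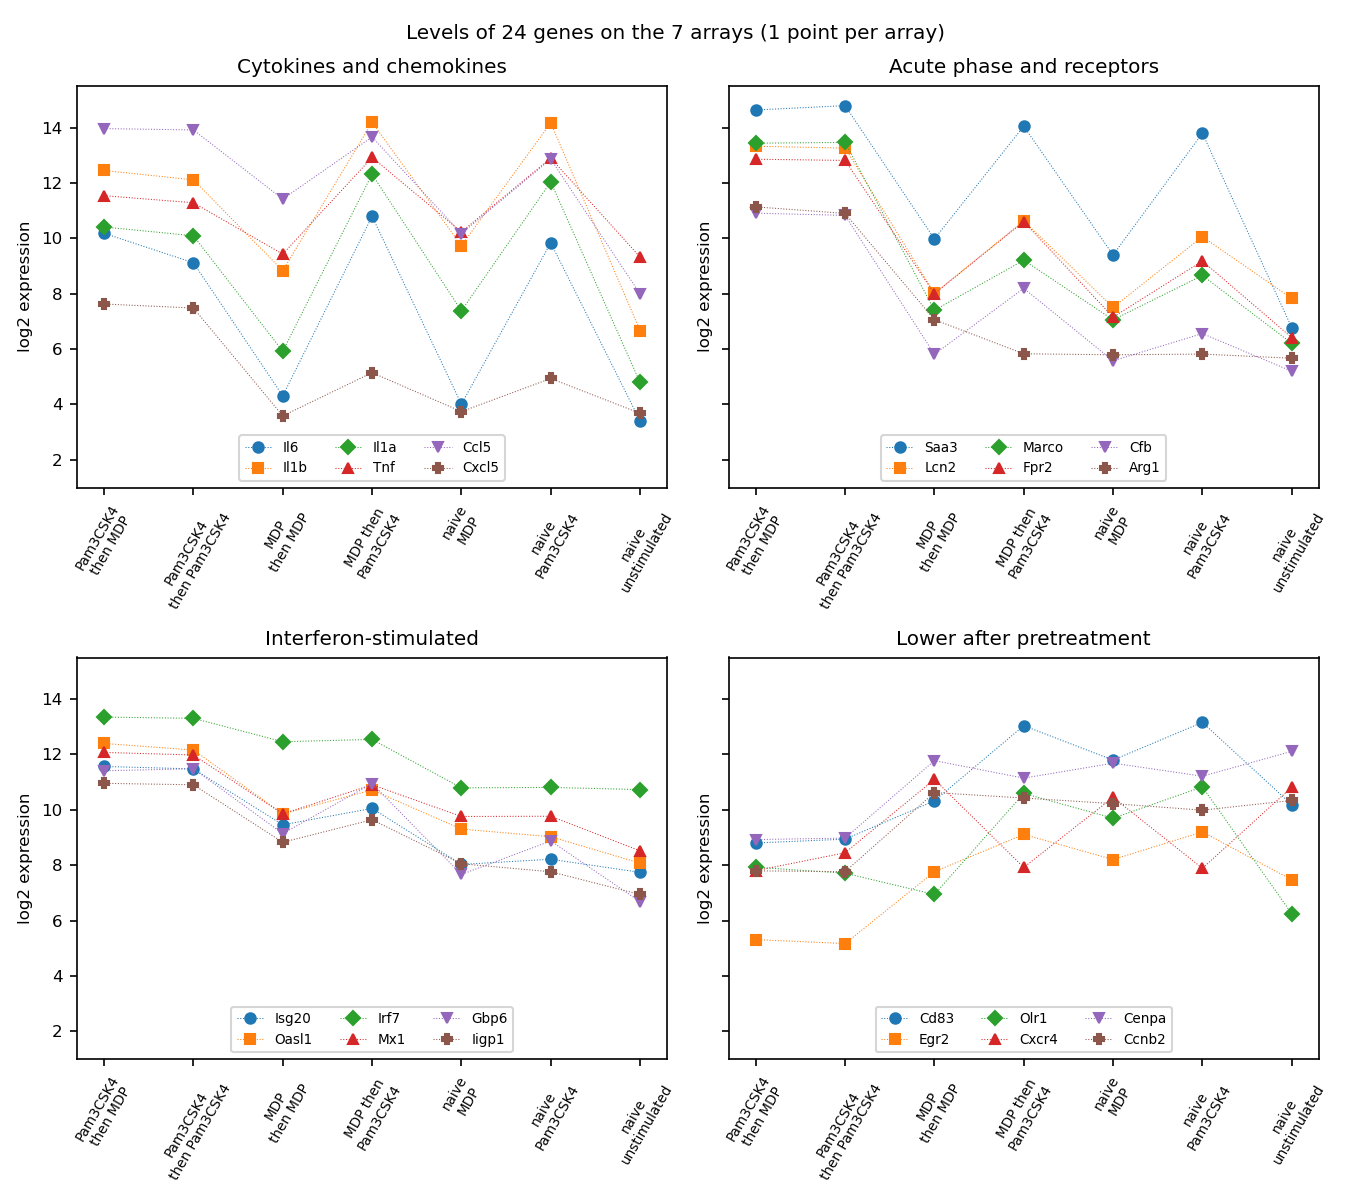
Log2 expression of 24 genes on each of the 7 arrays, 1 point per array, in panels of 6 genes; dotted lines only join the points of a gene and stand for no order of time. Marco, Lcn2, Fpr2, Cfb and Arg1 lay high on the 2 arrays with Pam3CSK4 for 24 h (left of each panel), whereas Il1b and Tnf were highest on the arrays given Pam3CSK4 as the second ligand without Pam3CSK4 pretreatment, and Cd83, Egr2, Cenpa and Ccnb2 had their lowest values on those first 2 arrays, which Olr1 and Cxcr4 did not share.

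Interferon-stimulated antiviral genes were the list with the highest median. Of 35 measured, 26 were at least 2-fold higher and 0 lower, and the median difference was 1.36. Isg20, an exonuclease of viral RNA, was at 11.57 in pretreated and 8.03 in naive cells (11.6-fold higher). Oasl1, a relative of the oligoadenylate synthetases that restrains interferon production, was at 12.40 in pretreated and 9.30 in naive cells (8.53-fold higher). The ubiquitin ligase Herc6 (6.13-fold), the oligoadenylate synthetase Oas3 (5.09-fold), the dynamin-like GTPase Mx1 (4.97-fold) and the nucleic acid sensor Zbp1 (4.59-fold) were also higher. Differences were smaller for some members: Rsad2, which makes an antiviral nucleotide, was at 14.57 in pretreated and 13.94 in naive cells, a difference of 0.63, and Ifit1, which binds viral RNA caps, was at 13.63 in pretreated and 12.50 in naive cells (2.18-fold higher).

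The factors that carry the interferon signal were less uniform. Irf7, which amplifies interferon production, was at 13.35 in pretreated and 10.79 in naive cells (5.89-fold higher), and Stat2, a subunit of the interferon-activated complex, at 10.31 in pretreated and 8.11 in naive cells (4.58-fold). The other 14 of 16 measured signalling factors were within 2-fold, among them Irf1 at 11.60 in pretreated and 11.18 in naive cells. Guanylate binding and immunity related GTPases, which attack vacuoles that hold microbes, were all above the naive level: 8 of 10 were at least 2-fold higher (median 1.26). Gbp6 was at 11.41 in pretreated and 7.67 in naive cells (13.4-fold higher), and Iigp1 at 10.96 in pretreated and 8.05 in naive cells (7.49-fold). Igtp, Irgm2, Gbp3, Gbp2 and Gbp7 lay between 2.03-fold and 2.48-fold higher. Outside these lists, the Schlafen genes Slfn4 (24.4-fold) and Slfn1 (22.5-fold) and the restriction factor Ifitm1 (12.4-fold) were among the 25 highest of all genes. The Gbp, Slfn, Saa and immunity related GTPase families hold close paralogs, whose probes can take up each other's RNA.

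The interferon response element is the sequence through which such genes are switched on, and 5 promoters that carry its core, TTCNNTTTC on either strand, are shown with the core in capitals. Matches of this core may overlap and then form 1 run of capitals.
Oas3 (chr5:120777690-120777764, - strand): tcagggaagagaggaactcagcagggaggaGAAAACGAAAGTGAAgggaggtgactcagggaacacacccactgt
Ifit1 (chr19:34640750-34640843, + strand): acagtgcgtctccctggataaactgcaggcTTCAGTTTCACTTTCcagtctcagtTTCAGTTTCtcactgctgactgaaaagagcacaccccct
Ifit3 (chr19:34583344-34583465, + strand): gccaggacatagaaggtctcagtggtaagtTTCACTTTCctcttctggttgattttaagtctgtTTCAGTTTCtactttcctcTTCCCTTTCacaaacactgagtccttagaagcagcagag
Gbp2 (chr3:142620575-142620643, + strand): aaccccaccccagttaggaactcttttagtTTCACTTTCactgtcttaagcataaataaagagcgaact
Irgm2 (chr11:58214883-58214951, + strand): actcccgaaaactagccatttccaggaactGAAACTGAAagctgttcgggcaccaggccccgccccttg
The core was in 43.8% of the windows of the antiviral list (14 of 32) and 75% of those of the GTPase list (6 of 8). It was in 16.7% of the windows of all higher genes, 7.48% of those of the lower genes and 7.37% of all windows. The antiviral and GTPase lists supply part of the higher genes, so these shares are not separate findings.

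The measured signalling genes of both pathways were nearly level. None of the 22 measured genes of the MDP sensing pathway was 2-fold apart (median 0.12), and the other 4 of 26 listed, the MDP sensor itself among them, are not analysed here. Nod1, whose product senses a different peptidoglycan fragment, was at 9.37 in pretreated and 8.63 in naive cells, the peptide transporter Slc15a3 at 13.76 in pretreated and 13.15 in naive cells, and the ubiquitin ligase Xiap at 10.50 in pretreated and 10.58 in naive cells. The list of TLR2 recognition and proximal signalling had 23 measured genes and also holds other Toll-like receptors and their partners. Of the 23, only Tlr3 was past 2-fold (9.83 pretreated, 8.31 naive, 2.86-fold higher). It is among these other receptors and senses double-stranded RNA. Tlr2 was at 12.88 in pretreated and 13.30 in naive cells, with 11.20 in unstimulated cells. Tlr1 (11.01 pretreated, 10.64 naive), Cd14 (14.00 pretreated, 13.99 naive) and the adaptor Myd88 (12.05 pretreated, 11.55 naive) were within 2-fold too. Levels of these transcripts say nothing of protein amounts or of the activity of the pathways.

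Among 16 NF-kB subunits and inhibitors, 14 were within 2-fold. Nfkbiz, a nuclear IkB protein needed for a second wave of NF-kB targets such as Il6 and Lcn2, was at 12.21 in pretreated and 8.81 in naive cells (10.5-fold higher). Nfkbie, an inhibitor that holds NF-kB in the cytoplasm, was at 9.88 in pretreated and 11.29 in naive cells (2.65-fold lower). The classical feedback inhibitors were close to level, with Nfkbia at 13.93 in pretreated and 13.79 in naive cells and Tnfaip3 at 11.81 in pretreated and 11.44 in naive cells.

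Of 27 further signalling brakes, 5 were at least 2-fold higher and 1 lower (median 0.15). Irak3, a pseudokinase that blocks signalling below MyD88, was at 11.83 in pretreated and 8.97 in naive cells (7.28-fold higher). Zc3h12a and Zc3h12c, whose products degrade inflammatory messages, were 4.54-fold and 3.78-fold higher. Socs1 was at 10.00 in pretreated and 7.83 in naive cells (4.50-fold higher), and Socs3 at 11.40 in pretreated and 9.45 in naive cells (3.85-fold); both encode inhibitors of JAK kinases. The 5 higher brakes thus act at different steps, from the receptor complex to the message. The phosphatase gene Dusp5 was 2.86-fold lower, Dusp1 was at 11.95 in pretreated and 11.74 in naive cells, and Dusp6 at 10.66 in pretreated and 11.47 in naive cells.

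Metabolic and lipid mediator genes held a few wide differences within lists that were otherwise near level. Arg1, which turns arginine into ornithine, was at 11.13 in pretreated and 5.79 in naive cells (40.5-fold higher). It was at 5.67 in unstimulated and 5.82 in naive cells given Pam3CSK4, so of the 7 cultures only those with 24 h of Pam3CSK4 (10.90 with Pam3CSK4 as second ligand) and, at 7.06, MDP then MDP stood clear of that level. Nos2, which uses arginine for nitric oxide, was at 6.94 in pretreated and 6.15 in naive cells, short of 2-fold. Acod1, the itaconate enzyme, was at 14.02 in pretreated and 12.85 in naive cells (2.24-fold higher), against 7.85 in unstimulated cells. Odc1, which takes ornithine on to polyamines, was 2.82-fold lower.

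In prostaglandin synthesis, Ptgs2 (cyclooxygenase 2) was at 9.19 in pretreated and below the median in naive cells, at least 12.5-fold higher, and Ptges, the next enzyme on the way to prostaglandin E2, was at 10.09 in pretreated and 6.11 in naive cells (15.7-fold). Pla2g7, which breaks down platelet activating factor, was 8.31-fold higher. Ltc4s, which makes leukotriene C4, was 3.84-fold lower, and Hpgd, which inactivates prostaglandins, was below the median in pretreated cells and at least 1.92-fold lower. Hpgd was short of 2-fold without the less specific probe sets. Ptges2, another prostaglandin E synthase, was at 8.06 in pretreated and 8.34 in naive cells, so not all enzymes of this step were higher. The desaturase Scd1 was 5.36-fold higher, while the sterol synthesis genes Sqle (2.06-fold lower) and Idi1 (2.02-fold lower) were short of 2-fold with cyclic loess.

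Matrix and coagulation genes included 8 of 27 at least 2-fold higher and 2 lower. Serpinb2, an inhibitor of plasminogen activators, was at 11.70 in pretreated and 5.95 in naive cells (54.0-fold higher), while Plau, the activator that it inhibits, was below the median in pretreated cells and at least 2.69-fold lower. Lox, which cross-links collagen, was at 11.47 in pretreated and 6.29 in naive cells (36.2-fold higher). The endothelial protein C receptor gene Procr (12.8-fold), the gelatinase Mmp9 (9.35-fold), the membrane protease Mmp14 (8.87-fold) and coagulation factor X, F10 (6.44-fold), were higher as well. Mmp12, the macrophage elastase, was 2.24-fold lower, but not on the scale centred on the housekeeping levels.

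Costimulatory and coinhibitory molecules went both ways, with 3 of 21 members at least 2-fold higher and 4 lower (median -0.13). Cd83, a marker of maturation in dendritic cells, was at 8.80 in pretreated and 11.79 in naive cells (7.96-fold lower), and below its unstimulated level of 10.18. Icosl, the ligand of a T cell costimulator, was at 7.73 in pretreated and 9.03 in naive cells (2.46-fold lower), but short of 2-fold with its probe sets averaged. Cd24a was 4.05-fold lower. The inhibitory ligand Cd274 (PD-L1) was instead at 12.23 in pretreated and 9.74 in naive cells (5.63-fold higher), Slamf7 was 5.02-fold higher and the early activation marker Cd69 4.51-fold. Cd40 was at 10.38 in pretreated and 10.17 in naive cells, and Cd86 at 9.33 in pretreated and 10.01 in naive cells, both within 2-fold. MHC class II genes had a median of 0.08, with 2 of 12 at least 2-fold higher and 0 lower. Of these 2, H2-Ob was below the median on both arrays (5.20 pretreated, 4.08 naive), and H2-Ab1 was 2.42-fold higher. Among MHC class I and immunoproteasome genes 3 of 14 were higher, led by their regulator Nlrc5 (4.29-fold). Over all genes 2.14% were higher.

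C-type lectin and Fc receptors differed in both directions, with 4 of 22 at least 2-fold higher and 6 lower (median 0.04). Clec10a, a galactose-binding lectin, was at 8.11 in pretreated and 10.80 in naive cells (6.43-fold lower). Clec7a, the beta-glucan receptor dectin-1, was at 10.11 in pretreated and 12.30 in naive cells (4.57-fold lower), and the mannose receptor gene Mrc1 at 11.12 in pretreated and 12.73 in naive cells (3.06-fold lower). Clec10a, Mrc1 and Mgl2 are used as markers of alternative activation by interleukin-4, and 4 of 17 measured genes of that kind were lower while Arg1 was the 1 higher. The inhibitory receptor Clec4a2 was 3.77-fold higher, the inhibitory Fc receptor gene Fcgr2b 2.32-fold and the activating Fcgr1 2.24-fold. Trem2, a lipid receptor, was 2.08-fold lower by its brightest probe set, yet at 0.048 without the less specific probe sets, so its direction is not settled.

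Several genes of apoptotic cell uptake were lower too. Gas6, a bridge between dying cells and the receptor MERTK, was at 11.03 in pretreated and 13.17 in naive cells (4.43-fold lower), although another of its probe sets gave 0.02. Havcr2, which encodes TIM-3, was at 7.37 in pretreated and 9.72 in naive cells (5.08-fold lower). Mertk itself was at 9.35 in pretreated and 8.71 in naive cells, and the bridging thrombospondin Thbs1 was 4.19-fold higher. Of 17 measured members 1 was at least 2-fold higher and 3 were lower.

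**Figure D3:**
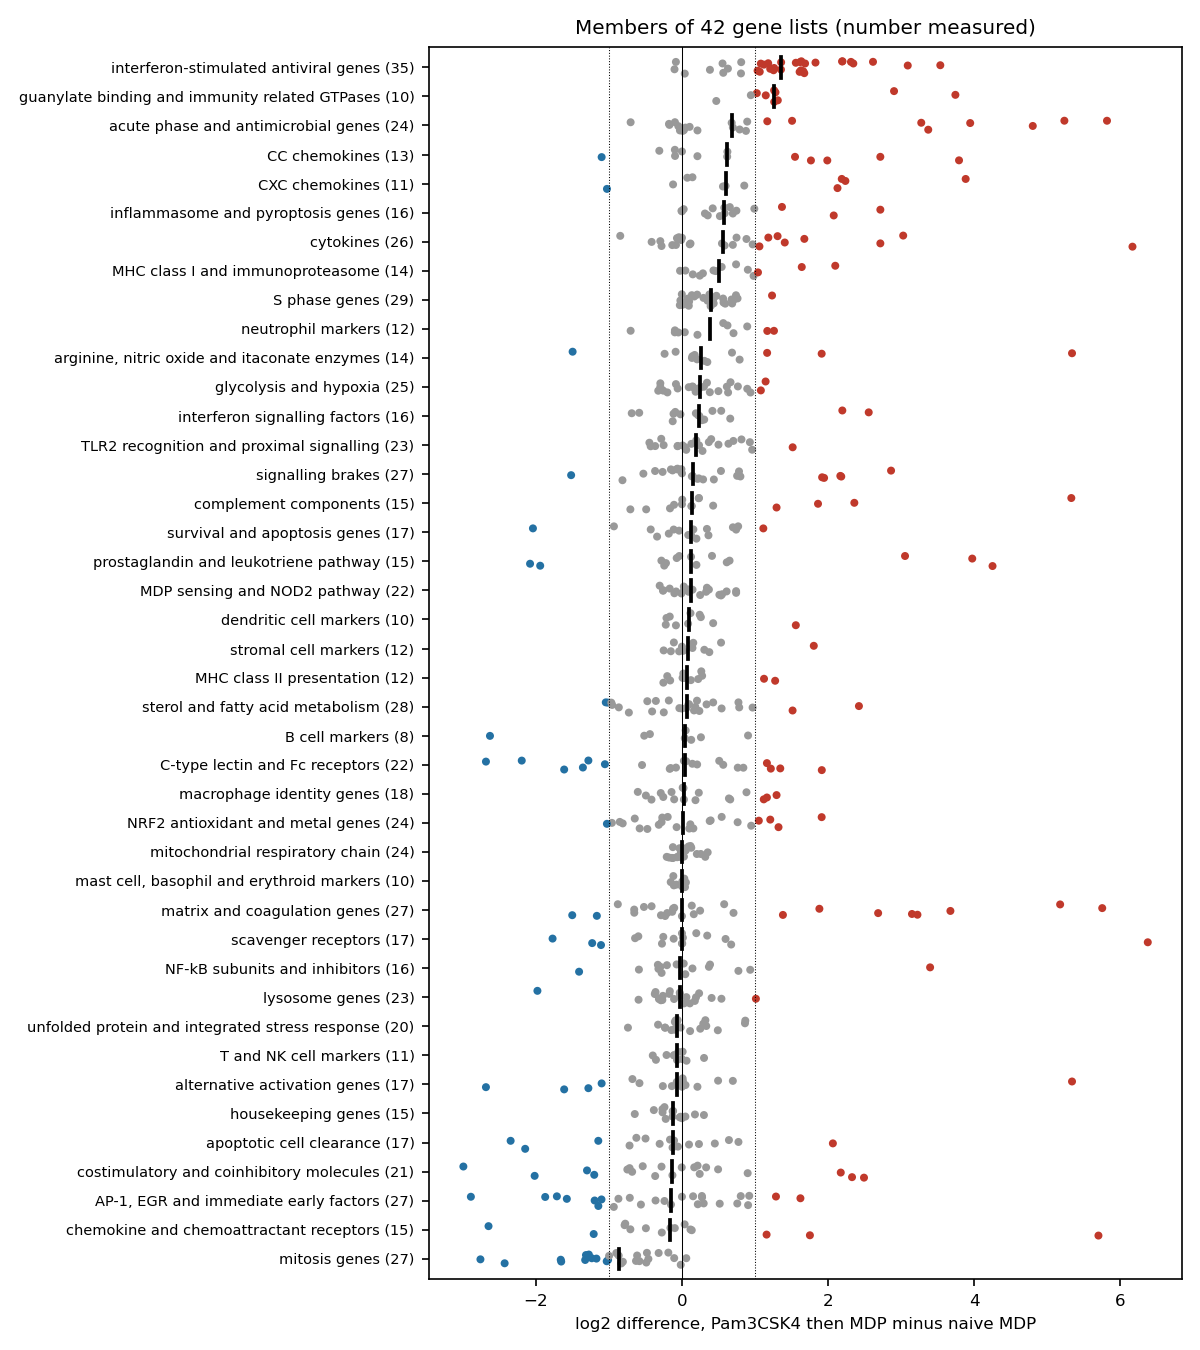
Differences of the measured members of 42 gene lists, as log2 values in Pam3CSK4 then MDP minus naive given MDP; each point is a gene, the bar is the list's median, dotted lines mark 2-fold and red and blue points lie past it. The interferon-stimulated antiviral list had the highest median at 1.36 and the mitosis list the lowest at -0.87, and the lists of the MDP sensing pathway and of the respiratory chain lay within 2-fold throughout.

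The widest difference on the lower side was Hmga2, a chromatin protein of growing cells, with 7.24 in pretreated and 11.42 in naive cells (18.1-fold lower), and its 3 probe sets above the median gave differences from -4.18 to -3.82. Klk1b11, a kallikrein, was 13.6-fold lower and Ramp1, a subunit of the receptor for the neuropeptide CGRP, 10.1-fold, although another probe set of Ramp1 gave -0.10. The growth factors Pdgfc (7.82-fold) and Pdgfa (4.95-fold) and the growth factor binding protein Igfbp4 (5.24-fold, with 6 probe sets between -2.67 and -1.76) were lower as well. Ighm, the immunoglobulin mu chain, was 6.18-fold lower by its brightest probe set but short of 2-fold with its probe sets averaged.

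Immediate early transcription factors leaned to the lower side, with 2 of 27 at least 2-fold higher and 7 lower (median -0.15). Egr2, an early growth response factor, was below the median in pretreated cells and at 8.20 in naive cells, at least 6.40-fold lower. Jdp2, a repressor that pairs with JUN, was at 10.12 in pretreated and 11.99 in naive cells (3.66-fold lower) but short of 2-fold with its probe sets averaged. Maff (3.28-fold) and Bhlhe40 (2.98-fold) stayed at least 2-fold lower under all settings run for single genes. Batf2 (3.08-fold) and Batf (2.44-fold) were the members at least 2-fold higher.

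Genes of mitosis were lower as a group. Of 27 measured, 11 were at least 2-fold lower and 0 higher, 26 lay below the naive level, and the median was -0.87 (-0.60 with probe sets averaged). Cenpa, the histone of centromeres, was at 8.93 in pretreated and 11.68 in naive cells (6.77-fold lower), although another probe set gave -0.23. Ccnb2, cyclin B2, was at 7.80 in pretreated and 10.22 in naive cells (5.38-fold lower). Cdc20 and Ube2c, which serve the ubiquitin ligase that ends mitosis, were 3.16-fold and 3.15-fold lower. S phase genes did not follow: of 29 measured 1 was at least 2-fold higher and 0 were lower. Most lay above the naive level, 26 of 29 (89.7%) against 44.2% of all genes, with a median of 0.39. Pcna was at 13.72 on both arrays. On the scale centred on the housekeeping levels all these differences are 0.34 higher, so the gap between both lists is the same. The cultures' cell numbers and cell cycle phases are not analysed here.

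Promoters of the mitosis list often carry the cell cycle homology region, TTTGAA, through which such genes are repressed in resting cells. It is in capitals in the stretches below, read on either strand, from members chosen for carrying it.
Ccnb2 (chr9:70421686-70421751, - strand): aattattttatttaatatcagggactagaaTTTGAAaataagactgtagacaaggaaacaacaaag
Mki67 (chr7:135716442-135716525, - strand): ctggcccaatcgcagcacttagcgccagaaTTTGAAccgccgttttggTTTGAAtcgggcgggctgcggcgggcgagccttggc
The motif was in 70.8% of the mitosis windows (17 of 24), in 14.3% of the windows of all lower genes and in 13.4% of all windows.

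Some other lists were level, and others held a few genes past 2-fold, where all genes had 2.14% higher and 1.71% lower. None of 24 respiratory chain subunits was 2-fold apart (median 0.00, range -0.21 to 0.35), nor was any of 20 genes of the unfolded protein and integrated stress response or of 15 housekeeping genes (median -0.13). Glycolysis and hypoxia genes had 2 of 25 (8%) higher, Bnip3 at 2.21-fold and Egln3 at 2.11-fold, and 0 lower. Antioxidant and metal genes had 4 of 24 (16.7%) higher, among them the cystine transporter Slc7a11 (3.77-fold) and haem oxygenase, Hmox1 (2.07-fold). They had 1 lower, the metallothionein Mt2 (2.04-fold), which was short of 2-fold with cyclic loess. The lysosome list had 1 of 23 higher and 1 lower, the proton pump subunit Atp6v0d2 at 9.07 in pretreated and 11.05 in naive cells (3.94-fold).

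Markers of other cell types were mostly dim. Of the markers measured, 2 of 10 lay above the array median for mast, basophil and erythroid cells on both arrays, 5 of 11 for T and NK cells, 4 of 8 for B cells and 5 of 10 for dendritic cells, with 0, 0, 1 (Ighm) and 1 (Bst2, also interferon-stimulated) past 2-fold. For stromal cells, 4 of 12 were above it on the pretreated and 5 on the naive array, and 1 (Dcn) was past 2-fold. The B cell defining gene Ms4a1 and the T cell gene Cd3g were below the median on both arrays. Neutrophil markers were brighter: 10 of 12 lay above the median on both arrays, the sum of their linear values was 16647 on the pretreated and 9471 on the naive array, and 2 were at least 2-fold higher, S100a8 (12.15 pretreated, 10.98 naive) and Csf3r (11.48 pretreated, 10.22 naive). Cxcr2, a defining receptor of neutrophils, was below the median on both (4.61 pretreated, 4.71 naive), Elane was at 6.82 in pretreated and 6.78 in naive cells, and Ltf at 6.88 in pretreated and 7.59 in naive cells. Ngp was at 10.26 in pretreated and 10.31 in naive cells, and Camp at 7.53 in pretreated and 7.62 in naive cells. Of the 12 markers, 8 lay above the naive level and 4 below. The part of neutrophil-lineage cells in the higher acute phase genes was not tested.

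Genes that a first contact with MDP induces were examined as a set. In naive cells, 40 genes (0.22%) were at least 3-fold above unstimulated cells after MDP. In pretreated cells given MDP, 15 of the 40 (37.5%) were at least 2-fold above the naive level and 5 (12.5%) at least 2-fold below. Over all genes these shares were 2.14% and 1.71%. Of the 40, 20 were within 2-fold, 31 were at least 3-fold above unstimulated cells, and the median difference was 0.54. The set was chosen on the naive array that also enters the difference, so these counts are a description. The 5 lower genes were Cd83, Olr1, Nfkbie, Icosl and Gpr132, a receptor for oxidised lipids at 6.69 in pretreated and 7.97 in naive cells (2.43-fold lower, short of 2-fold with its probe sets averaged). Among the 15 higher genes were Saa3, Ccl5, Mmp14, Il1a, Il1b, Cxcl2, Cxcl3, Cd69, Socs3 and Acod1. Tlr2, Relb, Icam1, Gpr84 and Clec4e were within 2-fold: Gpr84, a receptor for medium-chain fatty acids, was at 11.40 in pretreated and 12.18 in naive cells, and Clec4e at 13.54 in pretreated and 13.03 in naive cells.

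**Figure D4:**
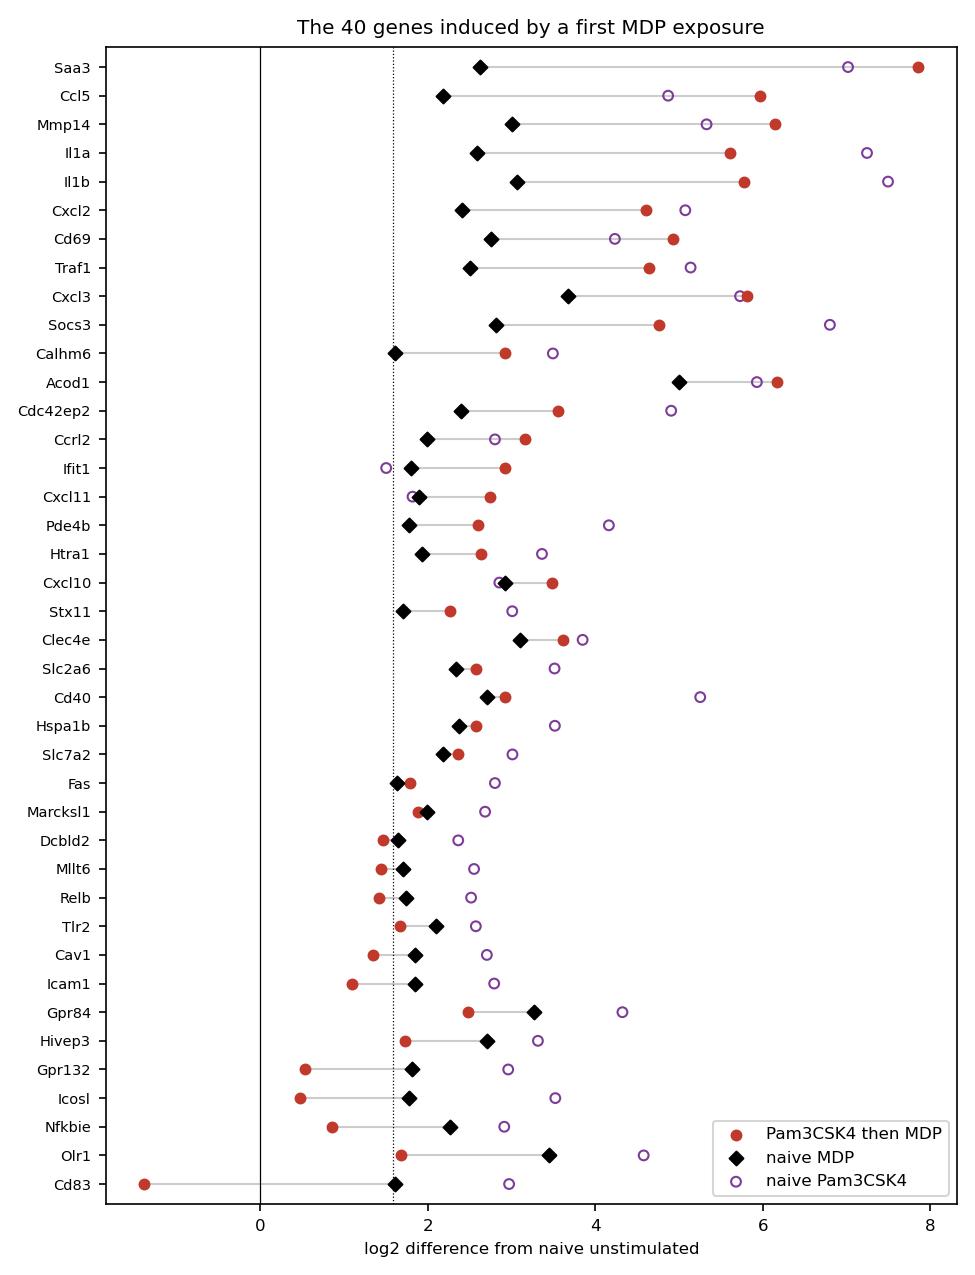
The 40 genes at least 3-fold above unstimulated in naive macrophages given MDP, as log2 differences from the unstimulated array; red circles are Pam3CSK4 then MDP, black diamonds naive given MDP, open circles naive given Pam3CSK4, and the dotted line marks 3-fold. Genes run by the difference between red and black, from Cd83 (-2.99, bottom) to Saa3 (5.24, top), with 26 of 40 red circles to the right of their diamonds.

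A set that shares no array with the comparison, chosen after seeing the data, gave another view. Of 71 genes at least 2-fold above unstimulated cells in MDP then MDP, 60 were at least 2-fold above the naive level in pretreated cells and 0 were below (median 1.83), against 2.14% and 1.71% of all genes. The antiviral genes supply part of them: Irf7 was at 12.46 in MDP then MDP and 10.73 in unstimulated cells, and Oas3 at 10.84 in MDP then MDP and 9.22 in unstimulated cells. Marco, at 7.40 in MDP then MDP, was far below its 13.43 in Pam3CSK4 then MDP, so sharing a direction did not mean sharing a level.

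Genes that a first contact with Pam3CSK4 induces were set beside the comparison, with which this choice shares no array. In naive cells 232 genes (1.28%) were at least 3-fold above unstimulated after 3 h of Pam3CSK4 and 110 (0.605%) at least 3-fold below. Of the 232, 77 (33.2%) were at least 2-fold higher in Pam3CSK4 then MDP than in naive cells given MDP, 16 (6.90%) lower and 139 neither. Over all genes 2.14% were higher and 1.71% lower. These 77 are 19.7% of the 390 higher genes, and 252 of the 390 (64.6%) were within 2-fold of unstimulated in naive cells given Pam3CSK4, against 95.8% of all genes. Of the 110, 26 (23.6%) were at least 2-fold lower and 5 (4.55%) higher. The higher genes were thus within 2-fold after 3 h of Pam3CSK4 in a smaller share than all genes. Arg1, Slfn4, Klra2 (a natural killer receptor family member, 17.1-fold higher) and Irf7 are among the 252.

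Which of the ligands came second made little difference after Pam3CSK4, and no pretreated culture went without a second ligand. Between Pam3CSK4 then MDP and Pam3CSK4 then Pam3CSK4, 1 gene of 18193 was 2-fold apart (0.0055%), and 99.6% of genes lay within 0.5 on the log2 scale. That gene was Il6, at 10.18 with MDP as second ligand and 9.12 with Pam3CSK4, a difference of 1.06. The next were Mir155hg, the host transcript of the inflammatory microRNA miR-155, with a difference of 0.90 but a level of 5.63 close to the array median, and Sh3rf1 at 0.76. On the other side Cxcr4 was at 7.80 with MDP and 8.45 with Pam3CSK4 as second ligand, a difference of -0.65. The spread of all differences, as a robust standard deviation over genes, was 0.11 between these arrays and 0.22 between Pam3CSK4 then MDP and naive given MDP. The control probe sets for 18S RNA had medians of 9.05 with MDP and 10.9 with Pam3CSK4 as second ligand, so this pair was not alike in all respects.

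The same pretreatment was set beside its effect under the other ligand, Pam3CSK4 then Pam3CSK4 minus naive given Pam3CSK4, which shares no array with the comparison. There 438 genes (2.41%) were at least 2-fold higher and 418 (2.3%) lower. Of these, 237 were also higher under MDP, which is 60.8% of 390 and 54.1% of 438, and 183 were also lower, which is 58.8% of 311 and 43.8% of 418. Across the 18193 genes the differences had a Pearson r of 0.67 and a Spearman rho of 0.53, as a description over genes, which are not independent replicates. Arg1 differed by 5.34 under MDP and 5.08 under Pam3CSK4, Slfn4 by 4.61 and 4.58, Clec10a by -2.68 and -2.86, and Ccnb2 by -2.43 and -2.22. These genes had nearly the same difference whichever ligand came second.

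Opposite differences past 2-fold were found for 18 genes. Higher under MDP and lower under Pam3CSK4 were 17 genes, and the reverse held for 1. Il1b differed by 2.72 under MDP and -2.06 under Pam3CSK4, with 12.45 and 12.11 in the pretreated cultures against 9.73 in naive cells given MDP and 14.17 in naive cells given Pam3CSK4. The pretreated cultures were thus alike, and the naive cultures were far apart. Tnf (1.31 under MDP, -1.61 under Pam3CSK4), Il10 (1.41, -1.85), Cxcl1 (2.24, -2.01), Socs3 (1.95, -2.24) and Ptgs2 (at least 3.65 under MDP, -2.19 under Pam3CSK4) had the same form. Il6 was higher by at least 4.63 under MDP and lower by 0.72 under Pam3CSK4, which is short of 2-fold. Saa3 and Ccl5 were higher under both, by 5.24 and 3.79 under MDP and by 1.00 and 1.05 under Pam3CSK4, and Cd83 and Egr2 were lower under both.

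**Figure D5:**
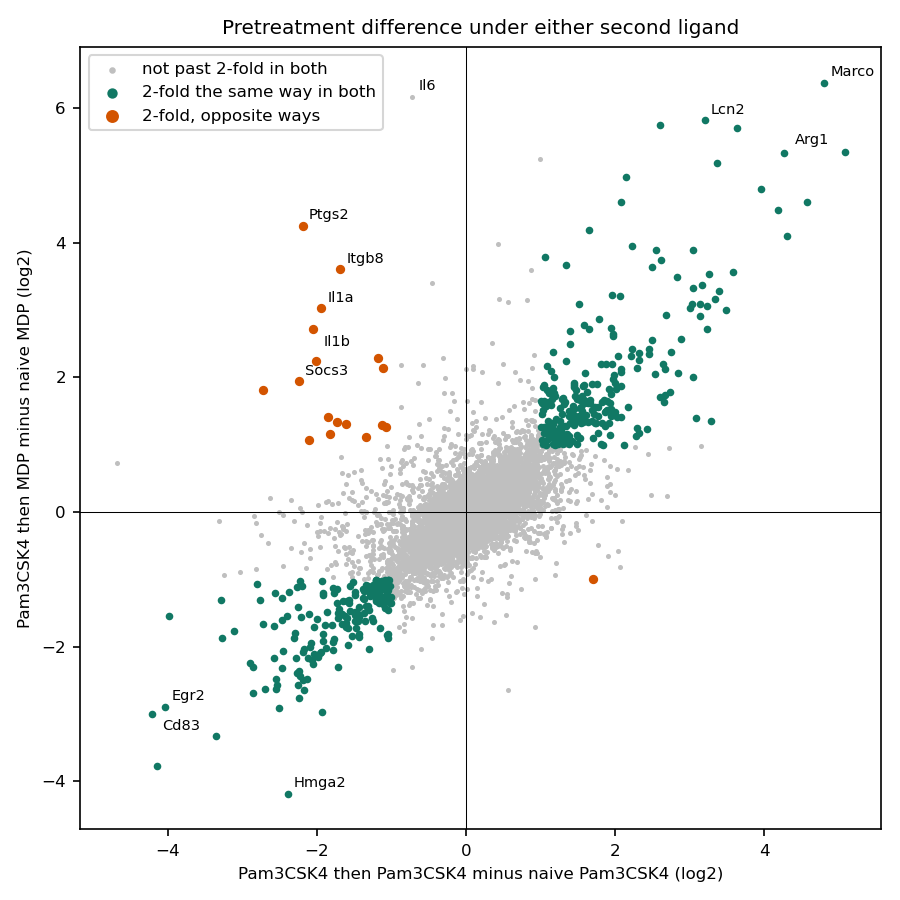
Log2 difference of 18193 genes in Pam3CSK4 then MDP minus naive given MDP (vertical axis) and in Pam3CSK4 then Pam3CSK4 minus naive given Pam3CSK4 (horizontal axis), each from 1 array against 1; each point is a gene. Genes past 2-fold the same way in both (green) lie along the diagonal, such as Marco, Arg1 and Hmga2, and the 18 genes past 2-fold in opposite ways (orange) include Il1a, Il1b, Ptgs2, Socs3 and Itgb8.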

How the data were processed

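Affymetrix expression arrays of 7 cultures, 1 each, were used. The deposited values are log2 expression per probe set, produced by RMA (affy) according to the authors, per the submitters' processing notes; versions and the set of arrays normalized together are not given in the sources used here. RMA brings arrays to a common distribution, so a shift of all genes would not be seen. The table held 45101 probe sets, of which 34945 had 1 symbol in the platform annotation, 932 several and 9160 none (64 were controls). Genes are 18193 symbols, each read from its brightest single-symbol probe set over the 7 arrays; 9010 had more than 1. Differences were taken between single arrays, with no test; the number of arrays limits the precision. Values below their array's median gave bounds; all counts and plots use the values as deposited. The genes and the 42 lists (806 members, 727 measured, the others not analysed here) were chosen with earlier results of these data known. Named genes were the 25 furthest each way, up to 6 list members furthest past 2-fold each way and 4 nearest 0, members of the induced sets, and a set of macrophage genes. The counting code was tested on simulated arrays with planted changes, which does not measure the noise between cultures. Alternatives were centring, cyclic loess (limma 3.58.1, R 4.3.3), the mean of probe sets, less specific probe sets left out, 32 added to the linear values, level filters and other folds. Python 3.11.15, numpy 2.4.6 and pandas 2.3.3 were used.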

Additional observations from a re-analysis of the deposited data

Results flagged for a closer look

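For 14 of the named genes the pretreatment difference was past 2-fold one way when MDP came second and past 2-fold the other way when Pam3CSK4 came second, with 1 array per culture, and the difference between the ligands was not tested. After Pam3CSK4 pretreatment and with MDP as second ligand, Rgs2, a regulator of G protein signalling, was lower by the deposited values (-1.001), against 1.70 with Pam3CSK4 as second ligand. The 13 others were higher with MDP and lower with Pam3CSK4. Their differences with MDP were 1.11 for the kinase gene Pim1, 1.16 for Cdc42ep2, 1.29 for Batf, 1.31 for Tnf, 1.41 for Il10, 1.81 for Mir155hg, 1.95 for Socs3, 2.14 for the TNF receptor adaptor Traf1, 2.24 for Cxcl1, 2.72 for Il1b, 3.03 for Il1a, 3.61 for the integrin subunit Itgb8 and 4.25 for Ptgs2. With Pam3CSK4 as second ligand they lay between -2.72 (Mir155hg) and -1.11 (Traf1). As bounds, the differences with MDP were at least 3.65 for Ptgs2, at least 1.53 for Itgb8 and at least 0.08 for Mir155hg, whose naive values with MDP were below the array median. Pim1 did not reach 2-fold with probe sets averaged, nor Mir155hg with 32 added to the linear values. Rgs2 fell short of it with either of these settings, with cyclic loess and with the arrays centred on the housekeeping levels.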

How the results depend on the processing

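No paired analysis was possible because each group holds 1 array, and for the same reason no replicate could be left out. The counts are of genes in Pam3CSK4 then MDP against naive given MDP, which in the report are 390 higher and 311 lower. Of the 40 MDP-induced genes 15 were higher and 5 lower, and of the 232 Pam3CSK4-induced genes 77 were higher and 16 lower. Centring the arrays on the housekeeping levels gave 750 higher and 133 lower, and 0 genes apart from Pam3CSK4 then Pam3CSK4. On that scale 3 of 40 MDP-induced and 9 of 250 Pam3CSK4-induced genes were lower. A threshold of 3-fold gave 170 higher and 86 lower, 2 MDP-induced genes lower, 49 Pam3CSK4-induced genes higher and 7 lower, and 0 apart from Pam3CSK4 then Pam3CSK4; a threshold of 1.5-fold gave 900, 889, 8 MDP-induced lower, 25 Pam3CSK4-induced lower and 34. With probe sets averaged 3 of 28 MDP-induced and 5 of 191 Pam3CSK4-induced genes were lower, and with 32 added 2 of 31 MDP-induced. With calls limited to genes above the 75th percentile, 10 of 232 Pam3CSK4-induced genes were lower. With induced genes taken at 2-fold, 40 of 106 MDP-induced were higher (37.7%) and 9 lower (8.49%), and 126 of 413 Pam3CSK4-induced higher (30.5%). At 3-fold these shares were 37.5%, 12.5% and 33.2%. Of 71 genes at least 2-fold above unstimulated cells in MDP then MDP, an alternative chosen after seeing the data, 60 were higher and 0 lower. That set was taken at 2-fold rather than 3-fold and not from a first contact with MDP, so it is not a rerun of the 40. For single genes, the alternatives were centring on array medians or housekeeping levels, cyclic loess and 32 added. Probe sets were also averaged, or the less specific ones left out. The other alternatives were applied to counts only. Of 181 named genes past 2-fold, 144 stayed past it under all settings run for single genes and 37 did not. Only 1 reversed, Trem2, at 0.048 without less specific probe sets. The cause of these shifts was not tested. Signal near background limits the 28 higher genes whose naive value and the 28 lower genes whose pretreated value lay below the array median.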

Other observations

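Probe sets without a gene symbol were not part of the gene counts. Of these, 40 were at least 2-fold higher in Pam3CSK4 then MDP than in naive cells given MDP and 28 at least 2-fold lower. Of the 159 higher genes with several probe sets above the array median, 97 had all of them past 2-fold, and of the 153 lower genes 60 did. Exactly equal values on both arrays were found for 901 genes.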
